A study of Sus scrofa with 9 samples.

Results

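The striated muscle actin genes ACTC1 and ACTA1 were followed in left ventricular muscle of newborn and young pigs. They were taken as the 2 rows of the expression table, out of 22629, whose gene name is ACTC1 or ACTA1, together with the ratio of one to the other in each library. The libraries were made from myocardium of wild type pigs that received no treatment, at postnatal day 0 (replicates 4, 5 and 6), day 7 (replicates 2, 5 and 6) and day 15 (replicates 1, 2 and 6), with 3 libraries per age and 9 in all. Whether each library stands for its own animal is not stated in the labels, and p-values here measure only the spread between libraries, which may be technical.

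Actin is the building block of the thin filament of the sarcomere, along which myosin heads pull during contraction. ACTC1 encodes cardiac alpha actin and ACTA1 encodes skeletal alpha actin, and the encoded proteins differ at only a few residues. Both are made in heart muscle, and their proportion is known to differ between species and to shift during development and under hemodynamic load. Their transcription is driven by serum response factor, encoded by SRF, together with its myocardin-family partners and the cardiac factor GATA4.

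Values are TPM (transcript abundance), a share of each library scaled for transcript length, so levels can be compared between genes but the sequencing depth behind them is unknown. Because the coding sequences of ACTC1 and ACTA1 are close to identical and the sources used here do not tell how reads common to both were counted, the split between the 2 genes is uncertain. Each library held 11290 to 12164 genes at 1 TPM or more. One unnamed gene, ENSSSCG00000032277, took 24.0% to 46.0% of a library's TPM, and was highest in day 15 replicate 1. In tissue RNA, fewer cells of a type and less RNA per cell cannot be told apart. The tissue carried heart muscle markers at every age: the 11 measured markers that are not actins summed to 55118 to 64327 TPM at day 0, 54926 to 62607 TPM at day 7 and 52304.5 to 64406 TPM at day 15.

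Cardiac actin fell after birth, to 2.28-fold lower at day 7 and 3.29-fold lower at day 15 than at day 0. Skeletal actin showed no difference between ages that passed the test. The ratio of ACTA1 to ACTC1 was 3.91-fold higher at day 7 and 3.97-fold higher at day 15 than at day 0, without overlap, although the exact test over the 3 ages did not pass. ACTC1 held 11841, 14745 and 15356 TPM in day 0 replicates 4, 5 and 6. At day 7 it held 6255, 8088 and 4494 TPM in replicates 2, 5 and 6, and at day 15 it held 2952, 4609 and 5540.5 TPM in replicates 1, 2 and 6. Every day 0 library lay above every older library, whereas the day 7 and day 15 libraries overlapped. The mean was 13981 ± 1878 TPM at day 0, 6279 ± 1797 TPM at day 7 and 4367 ± 1311 TPM at day 15 (SD, n = 3 per age here and below). In the order of abundance within a library, ACTC1 ranked 7 or 8 at day 0, 13 to 23 at day 7 and 20 to 28 at day 15.

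ACTA1, the skeletal gene, held 1614, 6040.2 and 2129 TPM in day 0 replicates 4, 5 and 6. The day 7 libraries held 8377, 4852 and 2585 TPM in replicates 2, 5 and 6, and the day 15 libraries 5211, 2866 and 2449.7 TPM in replicates 1, 2 and 6. At each age one library stood above the rest, namely day 0 replicate 5, day 7 replicate 2 and day 15 replicate 1, and the 3 ages overlapped. Its mean was 3261 ± 2421 TPM at day 0, 5271 ± 2919 TPM at day 7 and 3509 ± 1488.5 TPM at day 15. Its rank in the libraries ran from 19 to 42 at day 0, from 14 to 28 at day 7 and from 19 to 32 at day 15.

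**Figure D1:**
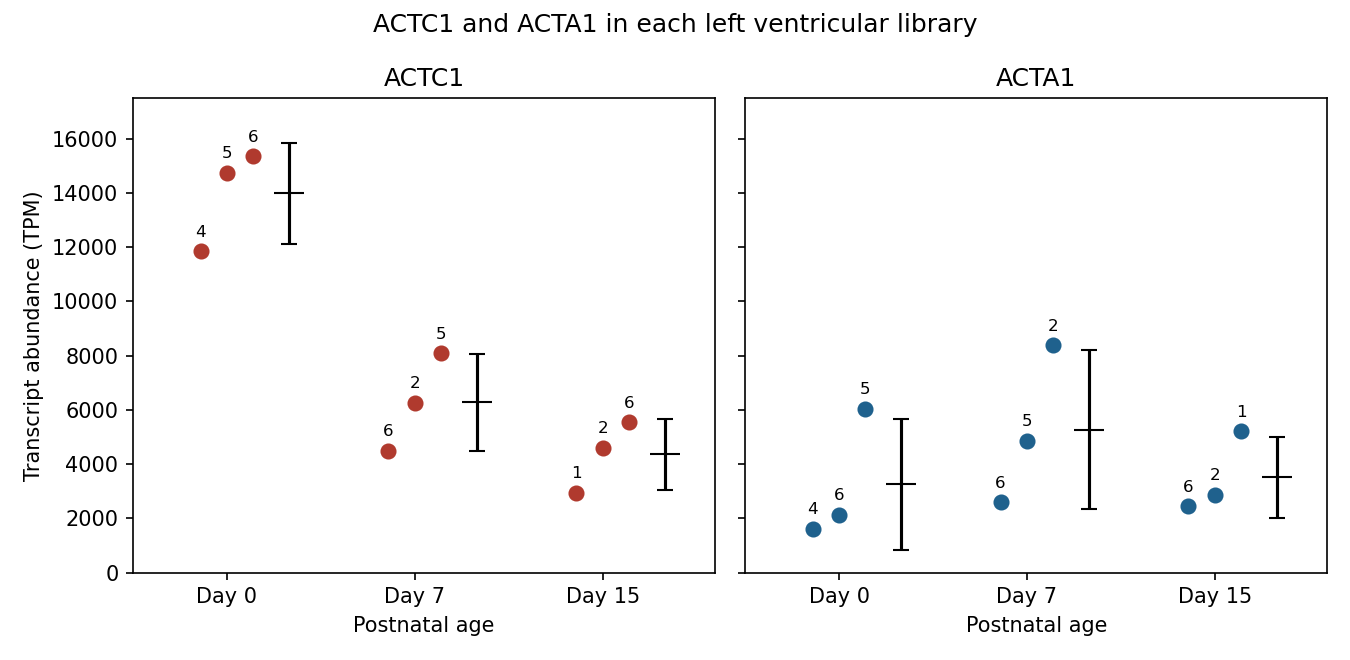
Transcript abundance (TPM, vertical axis) of ACTC1 (left) and ACTA1 (right) in each left ventricular library by postnatal age (horizontal axis). Points are libraries labelled with their replicate number, and the black bar beside them is the mean ± SD of 3 libraries. All 3 day 0 libraries of ACTC1 lie between 11841 and 15356 TPM, above every older library, while those of ACTA1 overlap between ages.

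Within an age, ACTA1 varied more than nearly all genes with a mean of at least 100 TPM. Its pooled within-age SD on the log2(TPM + 1) scale was 0.83, which was the 9th largest among the 561 genes with a mean of at least 100 TPM, and larger than that of 98.4% of them. The SD of ACTC1 was 0.38 (rank 64), and the median of these genes was 0.22. These are descriptions of the spread among 9 libraries, with no test.

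Differences between ages were tested with limma on log2(TPM + 1) over 12268 genes, with Benjamini-Hochberg adjusted p-values and a threshold of 0.05. At day 7 against day 0, 16.6% of all genes passed, 7.67% being higher and 8.88% lower. ACTC1 fell by 1.19 ± 0.26 on the log2 scale (SE; limma adjusted p = 0.0129), which is 2.28-fold lower. This call was lost without day 0 replicate 6 (log2 fold change of -1.11, limma adjusted p = 0.0712) and when genes of low abundance were not filtered out (limma adjusted p = 0.0586). Summed markers of some other cell types were higher at day 7. The 9 fibroblast markers summed to 1657 to 2273 TPM at day 7 against 949.9 to 1469 TPM at day 0, without overlap. The 7 endothelial markers summed to 312 to 342 TPM at day 7 against 208 to 245 TPM at day 0, also without overlap. The 12 smooth muscle and pericyte markers summed lower, to 418 to 545 TPM at day 7 against 539 to 753 TPM at day 0. Those ranges overlapped. By single marker, 2 fibroblast markers passed as higher, and 2 endothelial markers passed as higher and 1 as lower. Of the smooth muscle and pericyte markers, 2 passed as higher and 3 as lower. Mean levels of the fibroblast markers LUM and TCF21 and the endothelial markers KDR and EMCN were lower at day 7. The part of these cell types in the ACTC1 difference was not tested. ACTA1 differed by 0.78 ± 0.49 (limma adjusted p = 0.282). Without day 0 replicate 5, the newborn library with the high ACTA1 value, the difference was 1.35 and passed (limma adjusted p = 0.0443).

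At day 15 against day 0, 23.9% of genes passed, 5.53% being higher and 18.4% lower. ACTC1 fell by 1.72 ± 0.26 on the log2 scale (limma adjusted p = 0.00210), a level 3.29-fold lower than in newborns. It stayed past the threshold in all 19 alternative settings, with log2 fold changes of -1.91 to -1.42. At day 15 the fibroblast markers summed to 1187 to 1499 TPM and the endothelial markers to 195 to 233 TPM, and both ranges overlapped with those of day 0. Median-of-ratios scaling gave a median over all genes of 0.01 in place of -0.19, and ACTC1 then stood at -1.48. ACTA1 differed by 0.27 ± 0.49 (limma adjusted p = 0.712). The sign of that difference turned without day 0 replicate 4 (-0.11) and without day 15 replicate 1 (-0.05), so no direction can be given for it.

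Between day 15 and day 7, 0.171% of all genes passed, 0.0408% being higher and 0.13% lower at day 15. Neither actin did, with differences of -0.53 ± 0.26 for ACTC1 (limma adjusted p = 0.416) and -0.51 ± 0.49 for ACTA1 (limma adjusted p = 0.690). Whether the second week differed from the first was tested directly as the second step minus the first, a contrast added after the data were seen, for which 1.92% of genes passed. The value was 0.66 ± 0.45 for ACTC1 (limma adjusted p = 0.489) and -1.29 ± 0.86 for ACTA1 (limma adjusted p = 0.473), so a slower fall of ACTC1 in the second week was not shown.

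The ratio of ACTA1 to ACTC1 within a library does not depend on how that library was scaled. It was 0.136, 0.410 and 0.139 in day 0 replicates 4, 5 and 6. At day 7 it was 1.34, 0.600 and 0.575 in replicates 2, 5 and 6, and at day 15 it was 1.77, 0.622 and 0.442 in replicates 1, 2 and 6. The highest newborn library, replicate 5, lay just below the lowest day 15 library, so day 0 overlapped with neither later age, while day 7 and day 15 overlapped. ACTA1 exceeded ACTC1 in 2 libraries, day 7 replicate 2 and day 15 replicate 1. As a share of the summed ACTC1 and ACTA1 transcript, ACTA1 made up 17.7% ± 9.80 at day 0, 43.8% ± 11.7 at day 7 and 44.3% ± 17.4 at day 15.

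**Figure D2:**
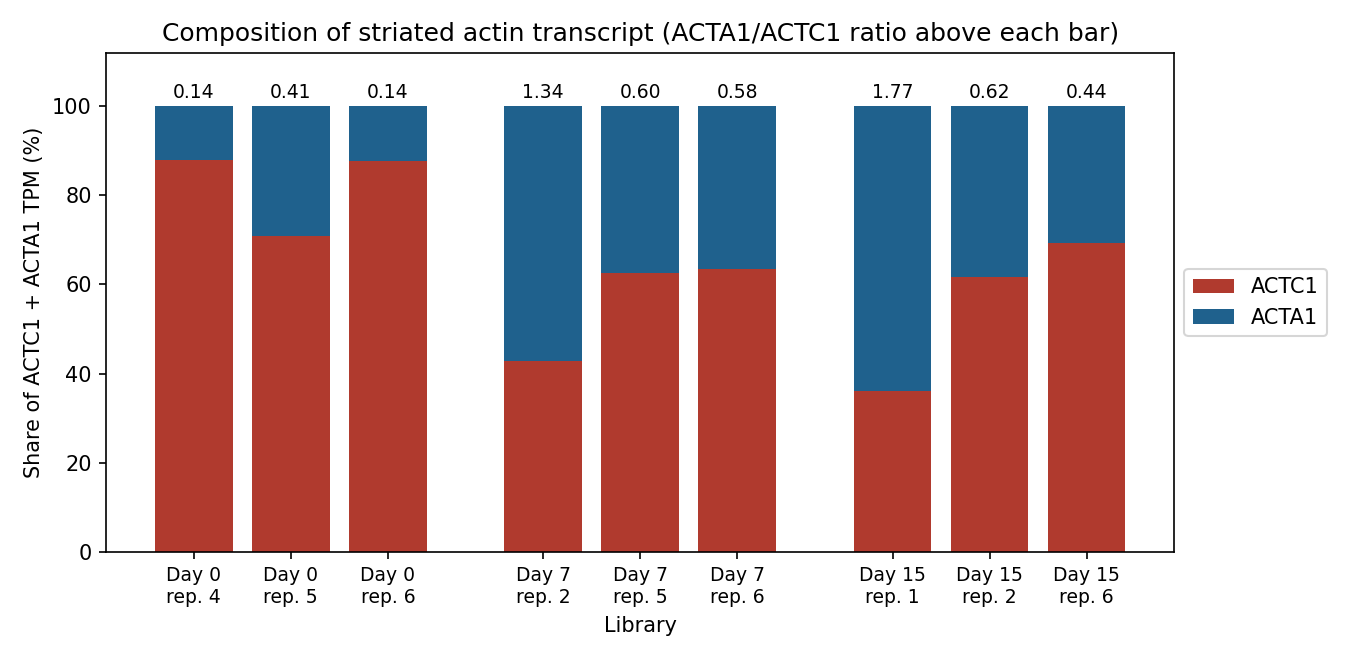
Share of the summed ACTC1 and ACTA1 TPM (percent, vertical axis) taken by each gene in each library (horizontal axis, grouped by age), with the ACTA1/ACTC1 ratio above each bar. ACTA1 takes 12.0% to 29.1% of the sum in the day 0 libraries, 36.5% to 57.3% at day 7 and 30.7% to 63.8% at day 15.

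On the log2 scale the ratio averaged -0.37 ± 0.69 at day 7 against -2.34 ± 0.91 at day 0, a difference of 1.97 ± 0.66 (SE) or 3.91-fold. It averaged -0.35 ± 1.04 at day 15, so that the difference from day 0 was 1.99 ± 0.80, or 3.97-fold, while that from day 7 was 0.02 ± 0.72. An exact two-sided permutation test gave p = 0.1 for each of the 2 comparisons with day 0, which is the smallest p that 3 against 3 libraries allow (adjusted p = 0.225 over 9 pairwise comparisons), and p = 0.9 for day 15 against day 7. Over the 3 ages together the exact permutation test of the F statistic gave p = 0.0679, or 0.102 after adjustment over the 3 single values tested in this way, and did not pass. Without day 15 replicate 1, the day 15 difference from day 0 was 1.41, and without day 0 replicate 5 it was 2.52.

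The summed abundance of ACTC1 and ACTA1 averaged 17242 ± 3671 TPM at day 0, 11550.1 ± 3964 TPM at day 7 and 7876 ± 358 TPM at day 15, that is 1.72% ± 0.367, 1.16% ± 0.396 and 0.788% ± 0.0358 of all TPM. The 3 day 15 libraries lay close together, at 8162, 7474 and 7990.2 TPM in replicates 1, 2 and 6, although their ACTA1/ACTC1 ratios ranged from 0.442 to 1.77. No p is given for this sum. Across the 9 libraries the log2(TPM + 1) values of ACTC1 and ACTA1 showed no clear relation (Pearson r = -0.19, exact permutation p = 0.617; Spearman rho = -0.22, exact permutation p = 0.581), and without day 0 replicates 5 and 6, the libraries farthest from the median of ACTC1, r was -0.34 (exact permutation p = 0.463). The deviations of both genes from their age means had r = 0.06, a description over 9 libraries.

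Set against the other heart muscle genes of the same library, ACTC1 was again lower after birth. The log2(TPM + 1) value of ACTC1 minus the median of the 11 heart muscle markers was 1.71 ± 0.24 at day 0, 0.35 ± 0.34 at day 7 and -0.05 ± 0.42 at day 15. This differed over the ages (exact permutation p = 0.0143 for the F statistic, adjusted p = 0.0429). Day 0 did not overlap with either later age. The adjusted p was 0.075 without day 7 replicate 5 or without day 15 replicate 1, and 0.0643 without day 15 replicate 2. None of the 11 markers passed at day 7 against day 0, day 15 against day 7 or day 15 against day 0. Of all genes, 16.6%, 0.171% and 23.9% passed there. With 3 libraries per age, not passing does not show that the markers were level. From day 0 to day 7, mean MYL2 went from 1637 to 2445 TPM and mean TNNI3 from 8094 to 6029 TPM. The most abundant marker, the ventricular light chain MYL3, held 13920.1 ± 372 TPM at day 0, 17055 ± 2009 TPM at day 7 and 13737.5 ± 661 TPM at day 15. For ACTA1 the same measure was -0.63 ± 1.02, -0.02 ± 0.63 and -0.40 ± 0.65 at day 0, 7 and 15, and it did not pass (exact permutation p = 0.614, adjusted p = 0.614).

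The listed markers of skeletal muscle were close to 0 in these libraries. Of 22 listed skeletal muscle markers 19 had a row, and their summed level was 5.15 to 9.03 TPM at day 0, 4.27 to 8.57 TPM at day 7 and 3.75 to 6.69 TPM at day 15, against 1614 TPM or more of ACTA1. The myogenic factors MYF5 and MYF6 and the satellite cell factor PAX7 were listed at 0 in all 9 libraries, and MYOD1 in 8. The most abundant of these markers, the embryonic myosin MYH3, reached 5.60 TPM at most. The slow skeletal troponin T gene TNNT1 was not on the list. It held 49.2 ± 5.23 TPM at day 0, 149 ± 129 TPM at day 7 and 300.5 ± 105 TPM at day 15. Over the 9 libraries, 8 macrophage markers summed to 62.1 to 274 TPM and 5 erythroid markers to 392 to 1259.9 TPM, with overlap between the ages. The 3 libraries high in ACTA1 held 5.15, 5.59 and 6.40 TPM of the summed skeletal muscle markers, within the range of the others. Their summed erythroid markers were the highest of their age at day 0 (1259.9 TPM) and day 7 (1212.5 TPM) and the lowest at day 15 (432.5 TPM). A relation of these markers to ACTA1 was not tested.

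Of the remaining actin genes, 4 were expressed, at much lower levels than the striated pair, which made up 89.6% to 94.2% of all actin TPM in every library. ACTB and ACTG1 encode the cytoplasmic actins found in all cells, and ACTA2 and ACTG2 the smooth muscle actins. ACTBL2 was listed at 0 in all 9 libraries. At day 7 against day 0, 2 of the 4 were lower and 0 higher, and at day 15 against day 0 all 4 were lower, with medians of -0.61 and -0.96 beside -0.04 and -0.19 over all genes tested, of which 8.88% and 18.4% were lower. The day 7 count was 0 without day 0 replicate 4 or 6 or day 7 replicate 2 or 6, and the day 15 count was 2 without day 0 replicate 6. Calls over all genes fell in such fits too. Without day 0 replicate 6 they went from 2031 to 372 at day 7 and from 2933 to 786 at day 15. The leave-one-out counts of the lists below are to be read beside that. None of the 4 passed between day 15 and day 7, where only 0.171% of all genes did.

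ACTA2 held 70.8 ± 14.4 TPM at day 15 against 142 ± 15.9 TPM at day 0 and fell by 1.01 on the log2 scale (limma adjusted p = 0.00515). ACTG2 held 4.05 ± 2.62 TPM at day 15 against 15.9 ± 6.18 TPM at day 0 and fell by 1.83 (limma adjusted p = 0.00745). Both calls at day 15 were kept in each of 16 settings, whereas those at day 7 were lost in 11 of 16 settings for ACTA2 and in 10 of 16 for ACTG2. The 12 smooth muscle and pericyte markers, to which both genes belong, summed to 341 to 386 TPM at day 15 against 539 to 753 TPM at day 0. Of the 12, 7 passed as lower, ACTA2 and ACTG2 among them, 1 passed as higher and 4 did not pass. Over all genes 18.4% were lower and 5.53% higher. CNN1 had 28.1 TPM at day 15 against 133 TPM at day 0, and TAGLN 72.8 against 166 TPM. Mean levels of RGS5, SMTN and ABCC9 were higher at day 15 (61.1, 44.8 and 16.2 TPM) than at day 0 (54.8, 31.7 and 9.53 TPM). The part of these cells in the lower smooth muscle actin level was not tested. 

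ACTG1 held 317 ± 47.1 TPM at day 15 against 597 ± 91.4 TPM at day 0 and fell by 0.91 (limma adjusted p = 0.00799, lost without day 0 replicate 6 at 0.0516). ACTB held 369 ± 59.6 TPM at day 15 against 568 ± 88.8 TPM at day 0 (-0.62, limma adjusted p = 0.0489), a call that was lost in 12 of 16 settings, including every rescaling of the TPM totals. 

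**Figure D3:**
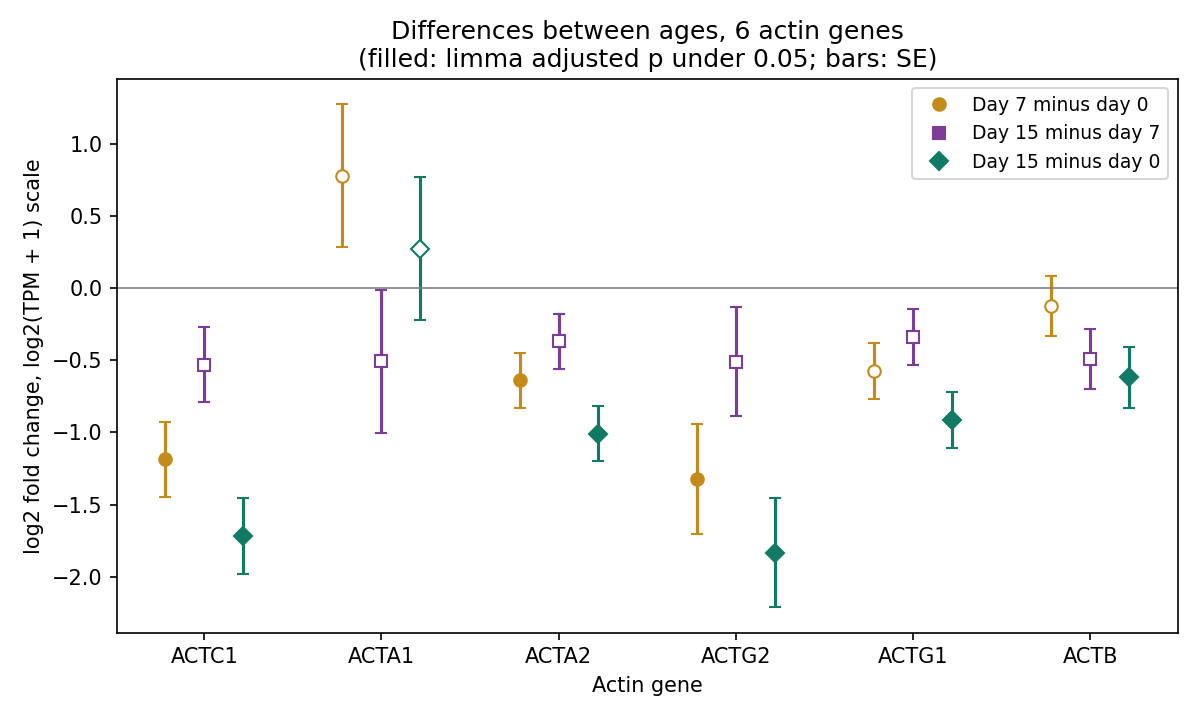
log2 fold change on the log2(TPM + 1) scale (vertical axis, with SE) of 6 actin genes (horizontal axis) for 3 contrasts between ages. Filled symbols have a limma adjusted p under 0.05. ACTC1 lies at -1.19, -0.53 and -1.72 and ACTA1 at 0.78, -0.51 and 0.27 for day 7 minus day 0, day 15 minus day 7 and day 15 minus day 0.

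Among factors that act on the striated actin promoters, some were lower at the later ages. Of 21 listed regulators tested, 4 were lower and 0 higher at day 7 against day 0, and 8 were lower and 0 higher at day 15 against day 0, with medians of -0.24 and -0.38, where 8.88% and 18.4% of all genes were lower. The day 7 count was 1 without day 0 replicate 4 and 0 without day 0 replicate 6 or day 7 replicate 6, and the day 15 count was 3 without day 0 replicate 6 and 5 without day 15 replicate 6. No regulator passed between day 15 and day 7, where only 0.171% of all genes did. SRF held 33.1, 39.3 and 20.4 TPM in day 7 replicates 2, 5 and 6 and 20.7, 35.4 and 32.3 TPM in day 15 replicates 1, 2 and 6, against 69.2, 56.3 and 86.8 TPM in day 0 replicates 4, 5 and 6, so no older library reached a newborn one. Its log2 fold change against day 0 was -1.20 at day 7 (limma adjusted p = 0.0146) and -1.25 at day 15 (limma adjusted p = 0.00861). The call at day 7 was lost without day 0 replicate 4 or 6 or day 7 replicate 6, and that at day 15 in 2 of 16 settings, one of them leaving out day 0 replicate 6.

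GATA4 held 41.7 ± 4.13 TPM at day 7 against 69.4 ± 9.62 TPM at day 0 (-0.72, limma adjusted p = 0.0214, lost in 4 of 16 settings), and 36.5 ± 5.95 TPM at day 15 (-0.91 against day 0, limma adjusted p = 0.00608, kept in 16 of 16). SMARCD3, a cardiac subunit of the BAF chromatin remodelling complex, fell by 1.18 at day 15 against day 0 (limma adjusted p = 0.00297) and GATA6 by 0.98 (limma adjusted p = 0.00745, lost in 1 of 16 settings). The coactivator myocardin, MYOCD, held 7.00, 8.48 and 8.18 TPM in day 15 replicates 1, 2 and 6 against 19.2, 11.1 and 24.3 TPM in day 0 replicates 4, 5 and 6, and fell by 1.05 (limma adjusted p = 0.0115). That call was lost in 2 of 16 settings, one of them leaving out day 0 replicate 6, with a highest limma adjusted p of 0.0746. Its relatives MRTFA and MRTFB, which carry signals from the actin cytoskeleton to SRF, did not pass in any contrast, nor did ABRA, an actin-binding activator of that pathway. FHL2, the most abundant listed regulator, had 184 ± 65.9 TPM in day 15 libraries and 214 ± 27.1 TPM in day 0 libraries (limma adjusted p = 0.416).

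The libraries with high ACTA1 were compared with those high in natriuretic peptide transcripts, which together with ACTA1 are textbook markers of load on the ventricle. NPPA, which encodes atrial natriuretic peptide, held 349, 2087 and 495 TPM in day 0 replicates 4, 5 and 6, and 249.9, 1446 and 37.2 TPM in day 7 replicates 2, 5 and 6. In day 15 replicates 1, 2 and 6 it held 6.79, 200.4 and 59.8 TPM. Day 0 replicate 5 was thus the highest newborn library for both ACTA1 and NPPA, but at day 7 the highest NPPA was in replicate 5 and the highest ACTA1 in replicate 2. At day 15 the library with the most ACTA1, replicate 1, had the least NPPA of all 9.

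NPPB, which encodes brain natriuretic peptide, followed a similar order within day 0, with 36.3, 224 and 83.3 TPM in replicates 4, 5 and 6. It held 129, 259.8 and 2.76 TPM in day 7 replicates 2, 5 and 6 and 7.34, 74.2 and 1.06 TPM in day 15 replicates 1, 2 and 6. NPPA was lower at day 15 than at day 0 (-3.96, limma adjusted p = 0.0393, lost in 10 of 16 settings), and NPPB did not pass (-3.03, limma adjusted p = 0.145). NPPA also marks atrial tissue, and the 6 measured atrial markers, NPPA among them, summed to 181 to 658 TPM at day 15 against 573 to 2969 TPM at day 0. Of the 10 fetal and load-responsive genes tested, 1 was lower at day 7 and 3 at day 15, both against day 0, and 0 were higher, with medians of -0.42 and -0.56, where 8.88% and 18.4% of all genes were lower. The day 15 count ranged from 0, without day 0 replicate 6 or day 15 replicate 6, through 1, without day 0 replicate 4 or 5 or day 15 replicate 1, to 5, without day 15 replicate 2. That of day 7 was 0 without any of the 3 day 0 libraries or without day 7 replicate 2 or 6. At day 15 the LIM protein FHL1 had a log2 fold change of -1.09 (limma adjusted p = 0.0176, lost without day 0 replicate 6 or day 15 replicate 6). The Z-disc protein CSRP3 had one of -0.81 (limma adjusted p = 0.0326, lost in 9 of 16 settings). The slow myosin heavy chain MYH7, the most abundant of them, had 7198 ± 515 TPM in day 15 libraries and 8766 ± 1535 TPM in day 0 libraries (limma adjusted p = 0.289).

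**Figure D4:**
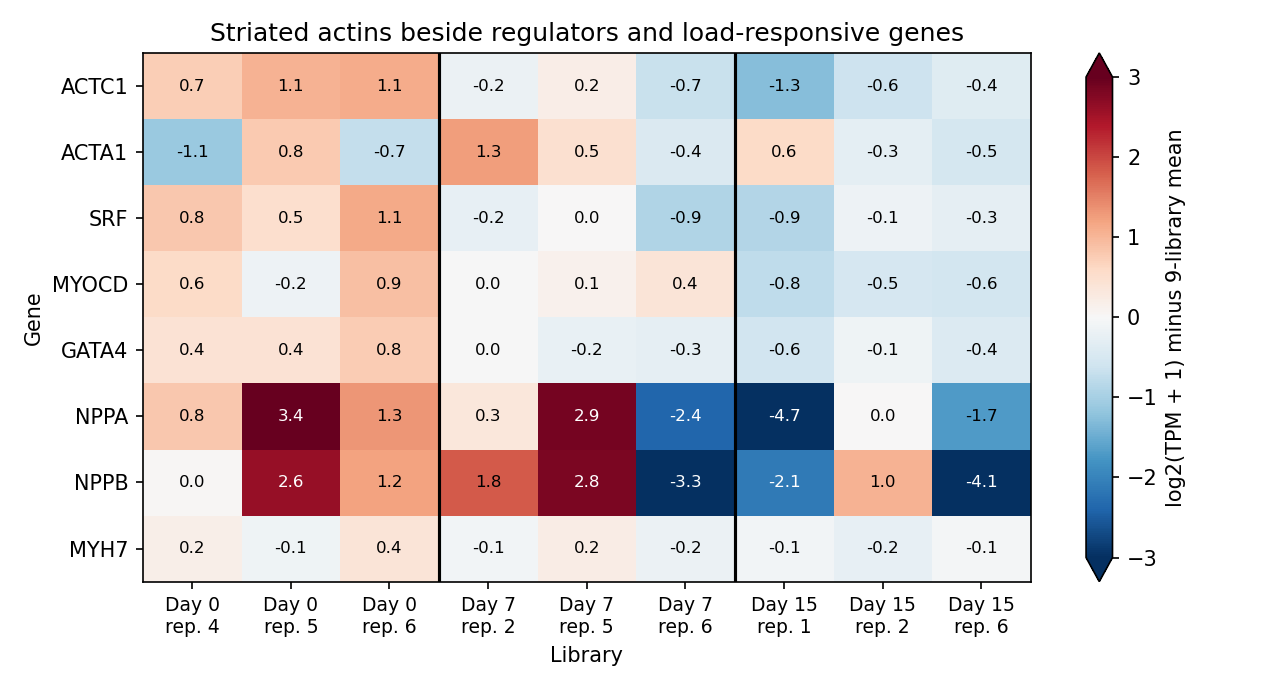
log2(TPM + 1) minus the mean of the 9 libraries (colour and printed value) for ACTC1, ACTA1, regulators and load-responsive genes (rows) in each library (columns, grouped by age). The colour scale saturates at 3 in either direction. ACTA1 is highest in day 7 replicate 2, at 1.3, whereas NPPA is highest in day 0 replicate 5, at 3.4, and lowest in day 15 replicate 1, at -4.7.

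The partners of actin in the thin filament gave few calls. Of 12 tested troponin, tropomyosin and nebulin genes, 1 was lower and 0 higher at day 7 against day 0, and 1 was lower and 1 higher at day 15 against day 0, with medians of 0.19 and -0.0046, beside 8.88% and 18.4% lower and 7.67% and 5.53% higher over all genes. These counts turned on the scaling and on single libraries, with 2 higher and 0 lower at day 7 and 1 higher and 0 lower at day 15 after median-of-ratios scaling. The most abundant, cardiac troponin T (TNNT2), had 9362 ± 1316 TPM in day 15 libraries and 9639 ± 777 TPM in day 0 libraries (limma adjusted p = 0.865). The beta tropomyosin TPM2 held 1356 ± 462 TPM at day 7 against 2224 ± 249 TPM at day 0 (-0.76, limma adjusted p = 0.0394), and this call was lost in 9 of 16 settings. The slow skeletal troponin T gene TNNT1 rose to 300.5 ± 105 TPM at day 15, against 49.2 ± 5.23 TPM at day 0 (2.53, limma adjusted p = 0.0124, lost without day 0 replicate 6 at 0.0519).

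Genes that set filament assembly, length and turnover held both higher and lower members. Of 30 tested, 5 were higher and 1 lower at day 7 against day 0, with a median of -0.07, and 4 were higher and 6 lower at day 15 against day 0, with a median of -0.08. Over all genes 7.67% were higher and 8.88% lower at day 7, and 5.53% higher and 18.4% lower at day 15. Leaving out 1 library at a time gave 2 to 6 higher and 0 to 3 lower at day 7 and 2 to 5 higher and 0 to 7 lower at day 15, with the fewest, 2 higher and 0 lower at either age, without day 0 replicate 6. The thymosin TMSB10, which holds actin monomers in reserve, held 1540.3 ± 322 TPM at day 7 against 654 ± 198 TPM at day 0 and rose by 1.26 (limma adjusted p = 0.00754). TMSB4X rose by 0.72 (limma adjusted p = 0.0183, lost in 4 of 16 settings). NRAP, which anchors actin during myofibril assembly, held 88.9 ± 8.54 TPM at day 7 against 48.5 ± 4.91 TPM at day 0 (0.86, limma adjusted p = 0.00767, lost in 1 of 16 settings), and the actin-binding Xin protein XIRP2 held 2.03 ± 0.867 TPM at day 7 against 0.111 ± 0.15 TPM at day 0 (1.42, limma adjusted p = 0.0110, lost without day 0 replicate 6 at 0.0587). At day 15 the filament-severing proteins gelsolin (GSN) and cofilin (CFL1) were lower than at day 0 (log2 fold changes of -0.98 and -0.76, limma adjusted p = 0.00800 and 0.0129). The call of GSN was lost in 2 of 16 settings and that of CFL1 in 3, among them for both leaving out day 0 replicate 6.

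At the Z-disc, where thin filaments are anchored, 3 of 22 tested genes were lower and 0 higher at day 7 against day 0, and 4 were lower and 2 higher at day 15 against day 0, with medians of -0.17 and -0.21, beside 8.88% and 18.4% lower and 7.67% and 5.53% higher over all genes. The count of lower genes was 1 at day 7 without day 0 replicate 6 or day 7 replicate 2 or 6, and 2 at day 15 without day 0 replicate 4 or 6 or day 15 replicate 1 or 6. The alpha-actinin-associated LIM protein PDLIM3 held 2.55 ± 0.355 TPM at day 15 against 13.7 ± 5.05 TPM at day 0 and fell by 2.00 (limma adjusted p = 0.00256, kept in 16 of 16 settings), and MYOZ1 fell by 1.15 (limma adjusted p = 0.00865, lost in 1 of 15 settings). PDLIM5 rose by 0.97 at day 15 (limma adjusted p = 0.0178, lost in 3 of 16 settings). Desmin, DES, the most abundant of the list, had 1644 ± 251 TPM in day 15 libraries and 2479.95 ± 1225 TPM in day 0 libraries (limma adjusted p = 0.282).

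Newly made actin is folded by the chaperonin CCT, to which the prefoldin complex delivers it. Of 14 tested genes of folding and modification, 6 were lower and 0 higher at day 7 against day 0, where 8.88% of all genes were lower, and 8 were lower and 1 higher at day 15 against day 0, where 18.4% were lower. Their medians were -0.44 and -0.65. These counts changed when 1 library was left out: 1 was lower at day 7 without day 0 replicate 4 or 6. It was 2 without any 1 of the day 7 libraries or without day 15 replicate 6. At day 15, 2 were lower without day 0 replicate 6 and 4 without day 15 replicate 6. Over all genes, the calls at day 7 fell likewise, from 2031 to 556 without day 0 replicate 4 and to 372 without day 0 replicate 6. The median of the folding list was -0.51 and -0.41 in those 2 fits. The prefoldin subunit PFDN2 held 19.9 ± 3.48 TPM at day 7 against 44.2 ± 7.27 TPM at day 0 (-1.12, limma adjusted p = 0.00730, kept in 16 of 16 settings). The chaperonin subunit TCP1 held 57.1 ± 7.29 TPM at day 7 against 103 ± 12.0 TPM at day 0 (-0.84, limma adjusted p = 0.0136, lost in 3 of 16 settings). CCT3, the most abundant, held 110.4 ± 18.2 TPM at day 7 against 175 ± 12.1 TPM at day 0 (-0.67, limma adjusted p = 0.0353, lost in 7 of 16 settings). At day 15 the subunits CCT8 and CCT5 had log2 fold changes of -0.82 and -0.86 against day 0 (limma adjusted p = 0.00968 and 0.0110), and these calls were lost in 2 and 3 of 16 settings, among them for both leaving out day 0 replicate 6. The CCT and prefoldin complexes fold other proteins too, tubulin among them. Between day 15 and day 7 no tested gene of any of the 7 lists passed, where only 0.171% of all genes did.

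Genes whose levels followed the pair most closely were named from 7149 genes with a symbol and a mean of at least 5 TPM, by Pearson r of log2(TPM + 1) over the 9 libraries, as a description with no p. The libraries share their age course and their scaling, so high values arise easily. Closest to ACTC1 were FAF1 (r = 0.98), TATDN1 (0.98), GOLGA1 (0.98), the cell cycle phosphatase CDC25A (0.98) and the glutaredoxin GLRX3 (0.97). All 5 were lower at day 15 than at day 0, by -0.89 to -0.63, all past the threshold. Genes picked in this way share the age course of their target, and ACTC1 itself fell, so these calls are no separate result. Closest to ACTA1 were SELENOM, a selenoprotein of the endoplasmic reticulum (0.95), the procollagen protease BMP1 (0.92), C1QTNF6 (0.91), the tubulin TUBB2B (0.90) and the scaffold protein HOMER2 (0.90), none of which passed in any contrast.

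Closest to the log2 ratio of ACTA1 to ACTC1 were the potassium channel KCNA5 (r = 0.93), SYT7 (0.93), CARHSP1 (0.91), the small heat shock protein HSPB6 (0.91) and the actin-capping protein CAPG (0.89). These 5 were picked for following the ratio in the same 9 libraries, so their differences between ages are no separate result. KCNA5 held 16.8 ± 2.35 TPM at day 7 and 12.8 ± 2.72 TPM at day 15, against 6.04 ± 3.11 TPM at day 0, and rose by 1.41 and 1.03 (limma adjusted p = 0.00784 and 0.0178). SYT7 passed only at day 7 against day 0 (limma adjusted p = 0.0330) and CAPG only at day 15 against day 0 (limma adjusted p = 0.0491). CARHSP1 and HSPB6 passed in no contrast.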

How the data were processed

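The authors deposited 1 table of TPM values with 22629 rows and 9 library columns, all used. Per the submitters' processing notes, the tools were kallisto 0.43.1, HISAT2 2.0.5 and Trimmomatic 0.33, and what each one did is not stated. For strand use, annotation and genome build, nothing is given in the sources used here. Symbols were added to 889 rows listed by Ensembl identifier.

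Genes with at least 1 TPM in at least 3 libraries (12268) were tested with limma 3.58.1 in R 4.3.3 on log2(TPM + 1), with a pseudocount of 1 TPM, which understates changes of low genes. The fit had 1 mean per age over all 9 libraries and a mean-variance trend. The step was tested on simulated data. The contrast of the second step minus the first was added after the data were seen. Single values were tested by exact permutation in Python 3.11.15.

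The 2 genes, the 7 gene lists and the 8 marker lists were chosen with earlier results of these data known. Named genes were the actins, the most abundant gene of each list, and in each contrast the called genes with the lowest adjusted p, at most 4 a list, of which the text gives a part. SRF, MYOCD, MRTFA, MRTFB, GATA4, ABRA, NPPA, NPPB and MYH7 were always included (MYH6, also in the rule, is not analysed here), and for likeness the 5 closest genes. Alternatives were other pseudocounts, filters and scalings, no trend, 2 ages only, a replicate block and leaving out each library.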

Additional observations from a re-analysis of the deposited data

How the results depend on the processing

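The fall of ACTC1 at day 15 against day 0 kept its direction and its side of the threshold in all 19 alternatives (leave-one-out -1.91 to -1.46). At day 7 against day 0 it was lost without a filter (-1.19, limma adjusted p = 0.0586) and without day 0 replicate 6 (-1.11, limma adjusted p = 0.0712). Leave-one-out values there were -1.39 to -0.97. For ACTA1, leave-one-out values were 0.37 to 1.35 at day 7 against day 0 and -0.11 to 0.84 at day 15 against day 0. Median-of-ratios scaling moved the median of all genes at day 15 against day 0 to 0.01 in place of -0.19, and the share of higher genes among those called to 49.3% in place of 23.1%. For the log2 ratio, limma without a trend gave a limma adjusted p of 0.0263 over the 3 ages, 1.97 (limma adjusted p = 0.0286) at day 7 and 1.99 (limma adjusted p = 0.0200) at day 15, both against day 0. Leave-one-out differences of the ratio were -0.56 to 0.44 at day 15 against day 7. Leave-one-out adjusted p-values were 0.0107 to 0.0750 for ACTC1 relative to the heart muscle markers.

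Replicate numbers recur across ages, at most 2 per pair of ages, and the deviations of 5 same-numbered pairs correlated at -0.21 to 0.17, so the numbers are not taken to pair libraries. With the replicate block, ACTC1 still passed, ACTA1 at day 15 against day 0 was -0.49, the ratio differed by 1.45 at day 7 against day 0 (limma adjusted p = 0.0441), by 0.93 at day 15 against day 0 (limma adjusted p = 0.201) and by -0.52 at day 15 against day 7, and its limma adjusted p over the ages was 0.0725. The block left, at day 7 and at day 15 against day 0, 0 and 3 calls among the other actins, 1 and 1 in the thin filament, 2 and 1 in assembly, 1 and 2 at the Z-disc, 1 and 0 in folding, 4 and 3 among regulators and 2 and 2 among load-responsive genes. Of the calls described, it ended those of NRAP, TMSB4X, CCT3, TCP1, ACTA2 and ACTG2 at day 7 and those of SRF, MYOCD, GATA6, GSN, CFL1, MYOZ1, CCT8, CCT5, CSRP3, NPPA and ACTB at day 15.

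Over all genes, 2031 were called at day 7 against day 0, but 1296 without a filter, 3794 after median-of-ratios scaling, 3445 without the most abundant gene in the total, 3580 without mitochondrial and the 20 most abundant genes, 857 with the replicate block and 372 to 2685 in leave-one-out fits. At day 15 against day 7, 21 were called, but 5 with a pseudocount of 0.1, 12 with no filter, 1 with a mean of at least 5 TPM, 8 after median-of-ratios scaling, 12 without the most abundant gene, 126 with the replicate block, 2 with 2 ages only and 0 to 59 in leave-one-out fits. At day 15 against day 0, 2933 were called, but 919 with the replicate block and 786 to 3275 in leave-one-out fits. Of the 108 genes tested in the 7 lists together, 22 were called at day 7 against day 0, beside 16.6% of all genes. That count was 34 after median-of-ratios scaling, 10 with the replicate block and 4 to 27 in leave-one-out fits. At day 15 against day 0, 40 of the 108 were called, beside 23.9% of all genes, but 11 with the replicate block and 11 to 43 in leave-one-out fits. The counts over all genes rose and fell in the same settings, so these shifts are not particular to the lists. The cause of these changes was not tested. TPM keeps no record of depth, so what depth limits is unknown.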
